A study of Mus musculus with 10 samples.

Results

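Internal transcribed spacer 2 (ITS2) is the stretch of the 45S ribosomal RNA precursor that lies between 5.8S and 28S rRNA. Its members were taken by position: the 1088 positions from 7035 to 8122 of the 45S sequence, directly after the last 5.8S position (7034) and directly before the first 28S position (8123), in all 3 deposited tables. They are 1088 of the 13400 positions of the 45S sequence, and the series holds 13591 positions in all, since 1 table adds the U2 small nuclear RNA. Positions are numbered as in the tables, from 1 at the start of the 45S sequence. A second number, "nt", counts from 1 at the first ITS2 position.

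The 45S precursor made by RNA polymerase I carries 18S, 5.8S and 28S rRNA, separated and flanked by spacers that are removed during ribosome assembly. ITS2 is opened by an endonuclease complex built around LAS1L, after which exonucleases trim the remainder back to the 3′ end of 5.8S and to the 5′ end of 28S, so that spacer sequence is short-lived and scarce beside the mature rRNAs. Box C/D small nucleolar RNAs (snoRNAs) guide the methylation of the 2′-hydroxyl of ribose at chosen nucleotides, and the rRNA sites they are known for lie in the mature rRNAs.

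RiboMeth-seq reads 2′-O-methylation from partial alkaline hydrolysis: a methylated ribose protects the bond beside it, so fewer sequenced fragments end there. Mouse libraries were made in 5 groups of 2. The ESC group was mouse embryonic stem cells with no treatment. The other 4 groups were neurons (iNeuron) induced from ESC by doxycycline-driven Ngn2, and all 4 took up an antisense oligonucleotide (ASO) from the medium: Snord101 ASO, Snord89 ASO, or, as a separate control group for each, non-targeting ASO. The ASOs were MOE gapmers at 10 uM in the medium, and cells were harvested for RNA 72 to 96 hours after their addition. Both libraries of a group are labelled as biological replicates, A and B, but nothing says whether they came from separate cultures, so the spread between them may be partly technical. The tables hold no marker genes and no snoRNA levels, so neither the cell types nor the knockdowns could be checked.

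The sequence that defines the Snord101 knockdown is its ASO, 5′ to 3′ as the labels' protocols give it, with the central gap of the gapmer, which directs RNase H to the target RNA, in capitals.
Snord101 ASO: gggtaTCCGACAATTcaagt

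Libraries held 16170997 to 18914207 read ends on 45S in ESC and 79070492 to 143176321 in neurons. The ESC table counts 5′ ends and the neuron tables add 5′ and 3′ ends, so ESC values are set beside neuron values here without a test. Levels are ends per 1000000 45S ends of the same library, abbreviated EPM. Away from its first and last 10 positions, ITS2 (1068 inner positions) had a median of 62.0 to 125.5 ends per position in neurons, and of 8.5 and 11.0 in ESC, where 110 (A) and 124 (B) inner positions had no end. A count of 0 allows up to 0.159 EPM in ESC A and 0.186 in ESC B. Limits and intervals of this kind cover at most counting error and not the spread between libraries. No molecular identifiers are described, so copies of the same fragment could not be told apart.

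The 2 Snord101-set controls differed from each other inside ITS2 more than the libraries of any other group. The chi-square per position between them was 28.03, against 1.79 to 4.24 in the other 4 groups. Library A was higher than library B at 802 of 1067 inner positions, with a median log2 ratio of 0.36. In the other groups one library was also the higher at most positions: A at 238 of 1068 in Snord89-set controls, 303 of 1066 in the Snord101 knockdown, 385 of 1066 in the Snord89 knockdown and 497 of 708 in ESC. Which of the 2 Snord101-set controls is the unusual one was not tested. At position 7591 (nt 557), for example, control A had 7.94 EPM, control B 1.57 and the Snord101 knockdown 0.853 (A) and 1.58 (B). At position 7879 (nt 845) control A had 4.48, control B 0.985, and the knockdown 0.546 and 0.679. The Snord101 results below are therefore also given without control A and without control B.

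Read ends in ITS2 were concentrated at its 3′ border. Position 8122 (nt 1088), the last spacer position before 28S, had more ends than any other 45S position in all 10 libraries and held 77.8% to 91.2% of all ITS2 ends. Whether the tables' numbering is shifted by one position from the mature 28S end was not tested, and with such a shift these would be ends of mature 28S and not of spacer. Position 8122 had 32163 (A) and 28846 (B) EPM in ESC. Snord101-set controls had 11788 and 12971, and the Snord101 knockdown had 17077 and 19532. Snord89-set controls had 7946 and 6372, and the Snord89 knockdown had 8773 and 9517. In each set, both knockdown libraries were above both controls, and the Snord101-set controls were above both Snord89-set groups.

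The whole of ITS2 therefore followed this one position. Its share of 45S ends was 3.74% and 3.34% in ESC, 1.39% and 1.48% in Snord101-set controls and 1.87% and 2.14% in the Snord101 knockdown. It was 0.957% and 0.819% in Snord89-set controls and 1.01% and 1.10% in the Snord89 knockdown. The widest Wilson 95% interval of these shares, that of ESC B, ran from 3.33% to 3.35%. A share is therefore not read as an amount of precursor, and in libraries from whole cultures fewer cells of a type and less RNA per cell cannot be told apart. In the inner 1068 positions the order of knockdown and control was the other way. They held 0.193% and 0.157% of 45S ends in ESC, 0.156% and 0.117% in Snord101-set controls, 0.101% and 0.113% in the Snord101 knockdown, 0.127% and 0.151% in Snord89-set controls, and 0.104% and 0.111% in the Snord89 knockdown. The mean knockdown share was higher than the mean control share by 0.567 (Snord101) and 0.169 (Snord89) percentage points over the whole of ITS2. The Snord89 difference was 0.100 without control B and 0.238 without control A. Over the inner positions the difference was -0.0298 and -0.0318 percentage points. For Snord101 it was -0.0105 without control A and -0.0492 without control B, and for Snord89 -0.0439 without control A and -0.0198 without control B. With 2 libraries against 2, an exact two-sided permutation test cannot go below p = 0.333, so no p is given for these shares.

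**Figure D1:**
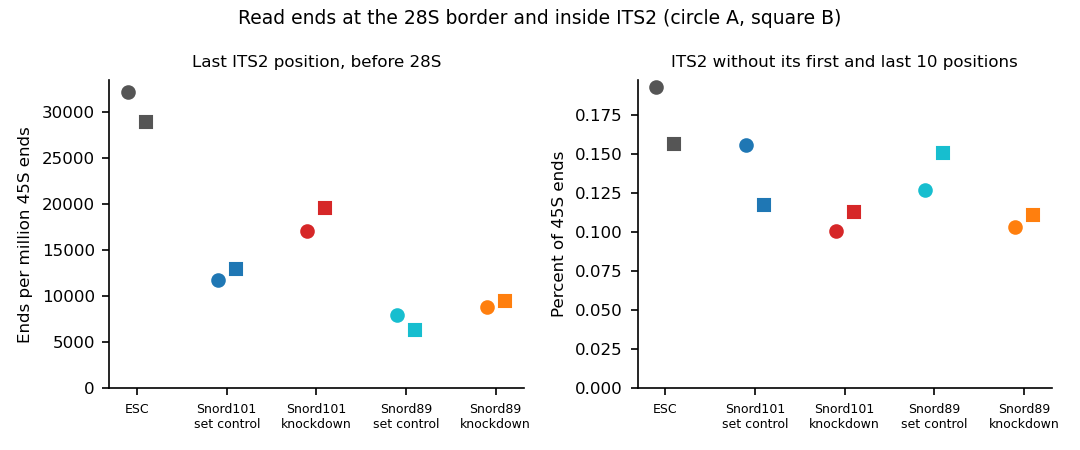
Ends per 1000000 45S ends (EPM) at the last ITS2 position (left) and the percent of 45S ends in the inner 1068 positions (right), 1 point per library (circle A, square B). In both sets the knockdown libraries sit above their controls at the border position (17077 and 19532 against 11788 and 12971 for Snord101) and below them inside ITS2, where Snord101-set control B (0.117%) is close to the knockdown libraries (0.101% and 0.113%).

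Inside ITS2 the ends were uneven, and in control neurons the 5′ side was the densest stretch before the border. Per position, inner ITS2 had a mean of 0.941 to 1.46 EPM in the 8 neuron libraries and 1.81 and 1.47 in ESC, close to the 0.923 to 1.34 and the 1.76 and 1.54 of internal transcribed spacer 1, the spacer between 18S and 5.8S. In windows of 50 positions, the first 3 windows (7035 to 7184, next to 5.8S) had 133 to 182 EPM each in the Snord101-set controls and 127 to 179 in the Snord89-set controls. The window after them (7185 to 7234) dropped to 18.3 to 31.0 in the same 4 libraries. Leaving out the last 10 positions, the first 150 held 26.2% (control A) and 39.9% (control B) of ITS2 ends in the Snord101 set and 33.0% and 32.1% in the Snord89-set controls. In ESC they held 27.3% and 26.1%. The first 10 positions, at the 5.8S border, had together 27.5 and 33.6 EPM in ESC, 21.7 and 25.8 in Snord101-set controls, 13.0 and 13.9 in the Snord101 knockdown, 22.5 and 27.95 in Snord89-set controls and 23.3 and 22.7 in the Snord89 knockdown. There the Snord101 knockdown was the lowest group and the Snord89 groups overlapped, and no peak like that at the 28S border was seen. By group mean, the lowest window was 7785 to 7834 in ESC (10.0 and 9.71 EPM), in the Snord101-set controls (30.7 and 10.3) and in the Snord101 knockdown (12.5 and 12.0). In the Snord89 set it was 7685 to 7734, with 15.6 and 21.7 in controls and 16.9 and 18.3 in the knockdown.

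Within the first 150 positions, ESC and neurons had their highest positions at different places. The highest inner positions of ESC were 7129, 7131 and 7132 (nt 95, 97 and 98). Position 7131 had 30.2 and 24.0 EPM in ESC and 1.72 to 4.97 in the 8 neuron libraries. In neurons the highest inner positions were 7143 (nt 109) and 7104 (nt 70). Position 7143 had 49.8 and 57.2 in Snord101-set controls but 3.33 and 2.16 in ESC, and position 7104 had 30.8 and 41.3 against 2.06 and 1.18. Since ESC counts lack 3′ ends, cell type and end type cannot be told apart in this difference.

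**Figure D2:**
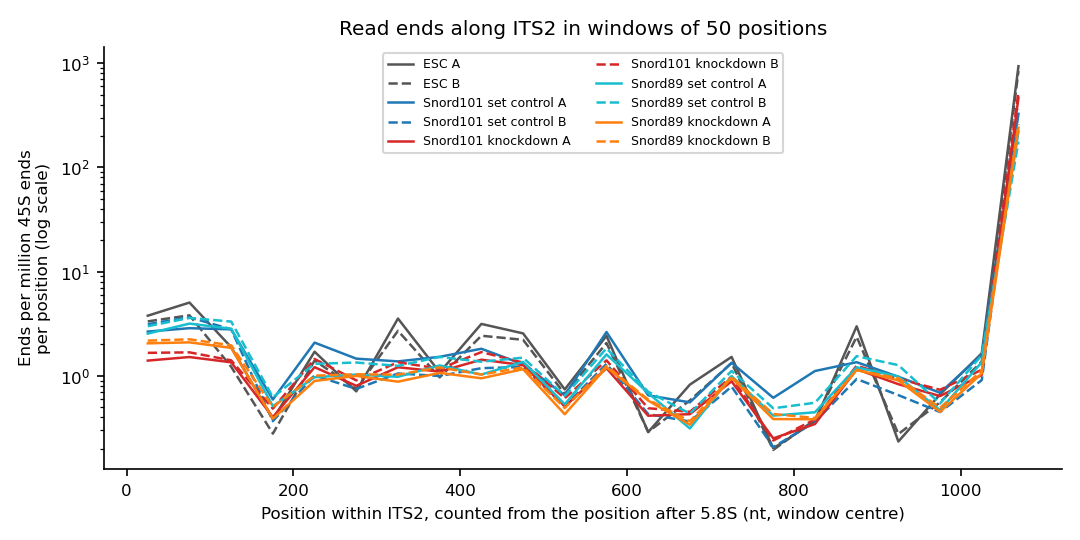
EPM per position (log scale) in 22 windows along ITS2, the last of 38 positions, with 1 line per library (solid A, dashed B). All 10 libraries rise steeply in the last window, which holds position 8122; in the first 3 windows the Snord101 knockdown lines are the lowest of the neuron lines, and Snord101-set control A runs above control B over most of the later windows.

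The first knockdown comparison asked where read ends in ITS2 differed after the Snord101 ASO. The share of positions that passed was close to that over 45S. Of 1080 ITS2 positions tested, 12 were lower and 1 was higher (edgeR's quasi-likelihood test on end counts with the 45S total as library size, Benjamini-Hochberg adjusted p under 0.05 over all 45S positions). Over all 12947 positions of 45S that were tested, 1.1% passed, 1.04% as lower and 0.0541% as higher. In ITS2 1.2% passed, which is near that background. The median log2 ratio was -0.06 in ITS2 and 0.01 over 45S. In ITS2 it was 0.19 without control A and -0.22 without control B, so its direction depended on a single library. The 4 libraries did not overlap, with the knockdown lower, at 20.1% of ITS2 positions and 19.1% of 45S positions, and with the knockdown higher at 21.5% and 26.5%. Of the 13 positions, 10 lay in the first 150, 2 in the last 10 (8119 and 8122) and 1 elsewhere (7864).

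Position 7107 (nt 73) had 21.5 and 26.0 EPM in controls and 3.55 and 5.02 in the Snord101 knockdown. The groups did not overlap, and the log2 ratio was -2.47 (SE 0.27, n = 2 against 2, edgeR adjusted p = 0.00265). Its neighbour 7108 (nt 74) went from 11.4 and 13.9 to 2.57 and 2.62, a log2 ratio of -2.29 (SE 0.27, edgeR adjusted p = 0.00391). These adjacent positions count ends of overlapping fragments and are not independent of each other. Position 7143 had 49.8 and 57.2 in controls and 11.7 and 16.7 in the knockdown, with a log2 ratio of -1.92 (SE 0.24, edgeR adjusted p = 0.00547). The 3 positions passed in all 12 alternative analyses, with each of the 4 libraries left out in turn among them.

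Position 7083 (nt 49) had 12.4 EPM in both controls against 2.93 and 4.02 in the knockdown (log2 ratio -1.84, SE 0.27, edgeR adjusted p = 0.0137). It passed in 11 of the 12 alternatives, the exception being the fit without knockdown A. Position 7104, among the highest inner positions, fell from 30.8 and 41.3 to 11.0 and 16.2 (log2 ratio -1.41, SE 0.26, edgeR adjusted p = 0.0374) and lost the call without knockdown A, with TMM factors and with the replicate block. Positions 7058, 7082, 7102, 7142 and 7145 had log2 ratios from -1.79 to -1.43 and lost the call in 4 to 6 of the 12 alternatives. Position 7864 (nt 830) was the only call between the first 150 and the last 10 positions, and its size depended on control A. It had 2.59 EPM in control A, 0.754 in control B and 0.239 and 0.243 in the knockdown. Its log2 ratio was -2.79 (SE 0.52, edgeR adjusted p = 0.0374), and -1.64 without control A, where it still passed. It lost the call with TMM factors.

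At the 28S border, position 8122 was higher after the Snord101 ASO by a log2 ratio of 0.56 (SE 0.07, edgeR adjusted p = 0.00466), a 1.48-fold difference. It lost the call with DESeq2 and with library sizes set to the ITS2 total, of which this position is the largest part, or to the inner total. Its neighbour 8121 had 284 and 308 EPM in controls and 404 and 470 in the knockdown, a log2 ratio of 0.56 that did not pass (edgeR adjusted p = 0.0859). Position 8119 (nt 1085), 3 positions before the peak, went the other way. It had 139 and 186 in controls and 59.2 and 85.0 in the knockdown, with a log2 ratio of -1.17 (SE 0.22, edgeR adjusted p = 0.0413). That call was lost without knockdown A (log2 ratio -0.94), with TMM factors and with the inner total as library size.

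**Figure D3:**
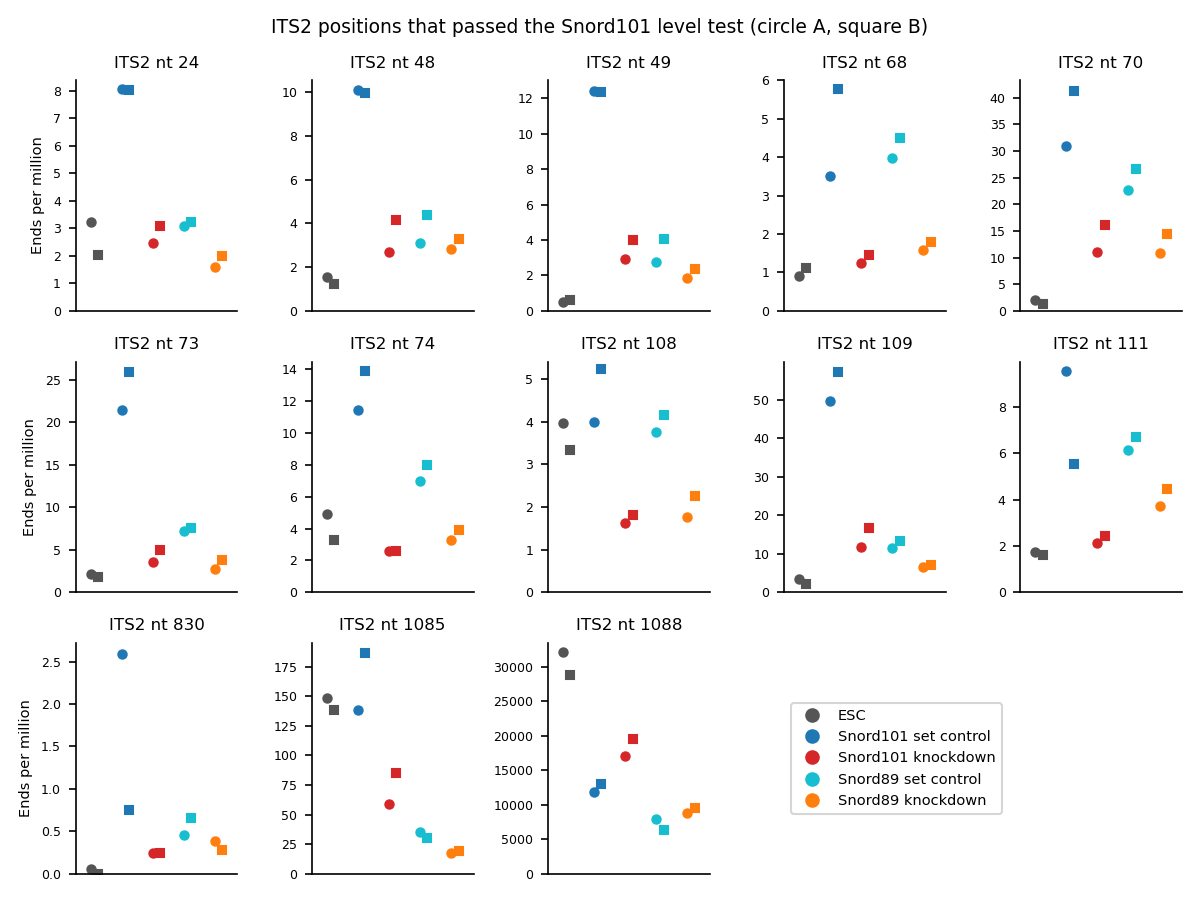
EPM at the 13 ITS2 positions that passed the Snord101 level test, 1 panel per position with its own axis from 0, and 1 point per library of all 5 groups (circle A, square B). At nt 73 (position 7107) the Snord101-set controls lie at 21.5 and 26.0 and the knockdown at 3.55 and 5.02, while the Snord89-set controls lie at 7.17 and 7.54.

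The number of calls depended on single libraries. It was 74 without control A (6.85%, against 4.04% over 45S), 224 without control B (20.7%, against 2204 of 12947 over 45S), 25 without knockdown B (2.31%, against 1.83%) and 14 without knockdown A (1.3%, against 1.51%). Of those 14, 5 were among the original 13. The 13 were all among the calls without control A and among those without control B. DESeq2 called 37 positions (3.43%, against 3.78% over 45S), all lower, of which 11 were among the 13. In each fit that leaves out a library, one group is a single library that is assumed to vary like the other group.

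In sums over windows, the 28S border was the place that passed. The first 3 windows had log2 ratios of -0.92 (SE 0.24), -1.03 (SE 0.25) and -1.02 (SE 0.23) in the Snord101 knockdown, and in each of them both knockdown libraries were below both controls. In window 2 (7085 to 7134), for example, controls had 143 and 182 EPM and knockdown libraries 75.6 and 83.9. None of the 3 windows passed (edgeR adjusted p = 0.0783, 0.0664 and 0.0664). They passed in 5, 6 and 6 of 10 alternatives and were lower in every one. With windows of 25, 4 ITS2 windows were lower past the threshold: 7060 to 7084, 7085 to 7109, 7135 to 7159 and 7860 to 7884. No share over 45S is given for windows of 25, so this count is not set against a background. The window 7860 to 7884 holds positions 7864 and 7879. There control A had 2.59 and 4.48 EPM, and control B had 0.754 and 0.985. The last window (8085 to 8122), which holds the border peak, was the 1 of 22 that passed, with a log2 ratio of 0.54 (SE 0.09, edgeR adjusted p = 0.0232). It passed in 6 of 10 alternatives. With TMM factors, for which no share over 45S is given, it did not pass (edgeR adjusted p = 0.100). There 2 lower windows passed in its place. With the ITS2 total its log2 ratio was 0.07, and it also lost the call with the inner total and without knockdown B. Over the whole 45S, 0.743% of 269 windows passed. Without knockdown B no ITS2 window passed, as over 45S (0.0%). Without control A 4 did (18.2%, against 11.9% over 45S) and without control B 10 did (45.5%, against 36.8%).

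For the 18 windows between them (7185 to 8084) no direction could be given. Their median log2 ratio was -0.13, with 12 of 18 lower. It was 0.25 without control A, with 1 of 18 lower, and -0.42 without control B, with 17 of 18 lower. The first 3 windows had medians of -1.03 and -0.84 in the same 2 fits. Whether the first 150 positions differ from the rest of ITS2 was not tested. Single windows as low were found elsewhere. The 5′ external spacer had a median of -0.10 and a lowest value of -1.09 (79 windows), internal transcribed spacer 1 had 0.17 and -0.12 (19 windows), the 3′ external spacer 0.00 and -0.71 (10 windows) and 28S -0.09 and -0.97 (94 windows).

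The same comparison after the Snord89 ASO gave no position past the threshold in the main fit, but lower values over most of inner ITS2. Some alternative fits, the replicate block among them, did call positions, as given at the end. Of 1078 positions tested, 0 passed edgeR's quasi-likelihood test after adjustment, 189 had an unadjusted p under 0.05 (17.5%, against 11.6% over 45S), and DESeq2 called 14 (1.3%, against 0.846%). Over 45S, 0.109% of 12878 positions passed. The 4 libraries did not overlap, with the knockdown lower, at 501 positions (46.5%), against 32.7% of all 45S positions tested, and with the knockdown higher at 38 positions (3.53%), against 12.6%. The median log2 ratio was -0.25 in ITS2 and -0.09 over 45S. With TMM factors these medians were -0.18 and -0.01, and with the inner total as library size 0.12 and 0.28. Positions that share a library share its total, so these counts are not independent observations.

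The 3 positions with the smallest p in the Snord89 comparison were 7102 (nt 68), 7107 and 7108. Position 7102 had 3.98 and 4.50 EPM in controls and 1.58 and 1.80 in the knockdown, a log2 ratio of -1.33 (SE 0.20, edgeR adjusted p = 0.0615). Position 7107 had 7.17 and 7.54 against 2.75 and 3.78, a log2 ratio of -1.17 (SE 0.22, edgeR adjusted p = 0.168). Position 7108 had 6.98 and 7.96 against 3.29 and 3.89, a log2 ratio of -1.06 (SE 0.20, edgeR adjusted p = 0.180). At each of the 3 positions both knockdown libraries were below both controls, but none passed. The 12 positions that were lower after the Snord101 ASO also had negative log2 ratios in the Snord89 set, as did 884 of all 1058 inner positions; 7082 turned to 0.0858 with the inner total as library size. The count of calls depended on which library was left out. In each such fit the share of ITS2 positions called was near or below the share over 45S.

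Position 8122 had a log2 ratio of 0.35 in the Snord89 set (SE 0.10, edgeR adjusted p = 0.331). Windows 1 to 3 had log2 ratios of -0.39 (SE 0.18), -0.64 (SE 0.18) and -0.69 (SE 0.18), and the last window had 0.34 (SE 0.10). For the last window it was 0.50 without Snord89-set control A and 0.19 without control B. Of 22 windows 0 passed edgeR's quasi-likelihood test after adjustment, with 6 at an unadjusted p under 0.05 (27.3%, against 20.1% over 45S) and 3 called by DESeq2 (13.6%, against 3.72%), and 0.0% of the 269 windows of 45S passed. Without Snord89-set control A all 22 passed, against 76.6% over 45S, and without control B 9 did (40.9%, against 33.8%). The 18 middle windows were all lower, with a median of -0.27 (-0.09 without control B, with 16 of 18 lower). Lower values were not limited to ITS2: 79 of 79 windows of the 5′ external spacer had a median of -0.33, all 19 of internal transcribed spacer 1 a median of -0.26 and all 10 of the 3′ external spacer a median of -0.49, while 18S (0.04) and 28S (-0.02) had medians near 0. TMM and DESeq2 scaling moved the median over all windows by 0.10 and 0.17 in this set, and the middle-window median was then -0.17 and -0.10. With the inner total as library size it was 0.10.

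**Figure D4:**
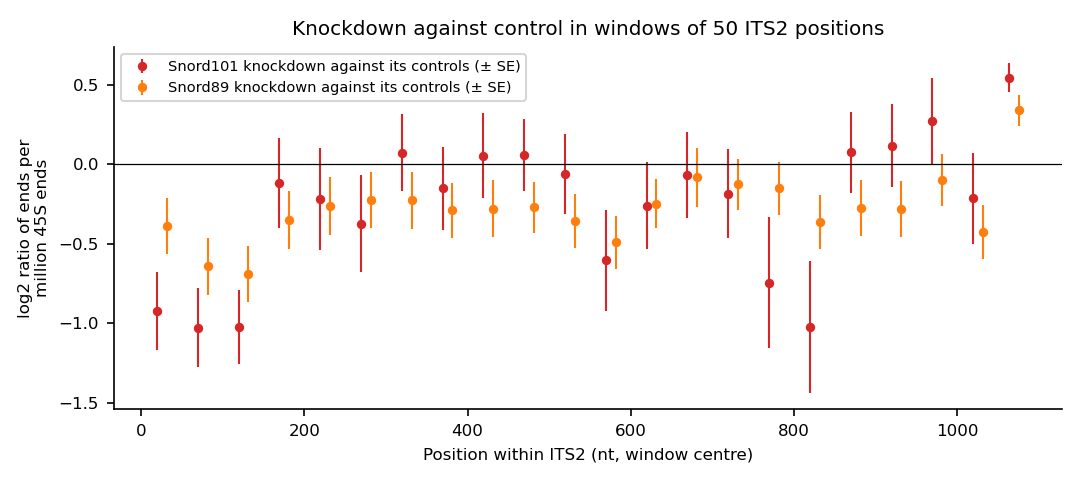
Log2 ratio of knockdown to control EPM in 22 windows along ITS2, with bars of ± 1 SE from edgeR (2 libraries against 2). In both sets windows 1 to 3 are below 0 and the last window above 0; the middle Snord101 windows have wider bars, most of which cross 0 while windows 6, 12, 16 and 17 lie below it and window 20 just above it, and the middle Snord89 windows lie between -0.49 and -0.08.

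Whether ITS2 responded differently to the 2 ASOs was tested as an interaction over the 8 neuron libraries. Of 1083 positions 0 passed edgeR's quasi-likelihood test, with 68 at an unadjusted p under 0.05 (6.28%, against 6.9% over 45S), and 0.0232% of 12931 positions of 45S passed. Position 7108 had the smallest p, with a difference of -1.24 between the 2 log2 ratios (SE 0.29, edgeR adjusted p = 0.703). Of 22 windows 0 passed edgeR's test, 0 had an unadjusted p under 0.05 (against 6.32% over 45S), and 0.0% of the 269 windows of 45S passed. Without Snord101-set control B, 15 positions (1.39%, against 0.82% over 45S) and 2 windows (9.09%, against 1.86%) passed. DESeq2 was not run for the interaction.

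The 2 control groups carry the same label, non-targeting ASO, and differed from each other in ITS2. Of 1084 positions, 21 were lower and 79 higher in the Snord89-set controls than in the Snord101-set controls (edgeR, adjusted p under 0.05). The balance was not stable: it was 105 lower and 77 higher without Snord101-set control B, 49 and 23 without Snord89-set control B, 36 and 77 with TMM factors, and 5 and 446 with the ITS2 total as library size. The 100 calls are 9.23% of ITS2 positions, against 18.4% of 12972 over 45S, where 9.52% were lower and 8.88% higher. Position 8119 had 139 and 186 EPM in Snord101-set controls and 35.5 and 30.3 in Snord89-set controls, a log2 ratio of -2.30 (SE 0.22, edgeR adjusted p = 0.000772). At 7143 the controls had 49.8 and 57.2 against 11.6 and 13.3, a log2 ratio of -2.10 (SE 0.24). At 8122 the log2 ratio was -0.79 (SE 0.09). This comparison and that of the Snord101 ASO share the 2 Snord101-set control libraries, so their values are only set side by side. After the ASO the log2 ratios at 8119, 7143 and 8122 were -1.17, -1.92 and 0.56. At 7107 the log2 ratio was -1.69 between control groups and -2.47 after the ASO, at 7108 -0.76 and -2.29, and at 7102 -0.13 and -1.79. At 7143, Snord101 knockdown A (11.7) lay between the Snord89-set controls, and knockdown B (16.7) lay above them. The largest differences in the other direction were at 7804, 7098 and 7322, with log2 ratios of 2.43, 1.87 and 1.81. Their counts were low. Snord101-set controls had 10 and 7 ends at 7804, 18 and 20 at 7098, and 27 and 32 at 7322. Snord89-set controls had 26 and 35, 44 and 48, and 55 and 81. The cause of the difference between the sets was not tested. The count of calls was 182 without Snord101-set control B (16.8%, against 26.8% over 45S) and 47 without Snord89-set control A (4.34%, against 7.1%).

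The methylation score compares each position with its neighbours. The ends at a position are divided by a weighted mean of 6 neighbours on either side and subtracted from 1, with negative values set to 0, so a value near 1 marks a gap in the profile. A score of at least 0.75 in all 8 neuron libraries was found at 11 of 1086 ITS2 positions with a flanking count of at least 10 (1.01%), against 1.59% of 12840 positions of 45S. Of the 11, 10 touched a border: 7035 to 7038 and 8116 to 8121. The latter are within 6 positions of the peak at 8122, which enters their flanking mean. Position 8118, for example, had 22.0 and 24.2 EPM in Snord101-set controls beside the 11788 and 12971 of the peak, and scores of 0.978 in both libraries. In ESC the positions 7035 to 7038 scored 0.0913 to 0.572 8116 to 8120 scored 0.933 to 0.977 and 8121 scored 0.478 and 0.450.

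Away from the borders, 1 position reached the threshold in all 8 neuron libraries. Position 7355 (nt 321) scored 0.837 and 0.863 in Snord101-set controls, 0.822 and 0.896 in the Snord101 knockdown, 0.802 and 0.829 in Snord89-set controls and 0.869 and 0.857 in the Snord89 knockdown. In ESC it scored 0.981 and 0.939. It had 9 to 31 ends per neuron library over flanking counts of 68.8 to 190, and 2 and 4 ends in ESC over 108 and 66.0. Knockdown and control scores overlapped in the Snord101 set, both knockdown scores were above both controls in the Snord89 set, and both ESC scores were above all 8 neuron scores. Position 7356 (nt 322) scored 0.715 to 0.829 in neurons and 0.869 and 0.773 in ESC, and position 7721 (nt 687) 0.727 to 0.895 in neurons and 0.941 and 1.00 in ESC, the last with 0 ends over a flanking count of 29.2. Scores of this height in a spacer of low counts are described as gaps in the profile, and no methylation is called from them.

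Counting both libraries of a group, inner ITS2 had 25 of 1068 positions at 0.75 or more in Snord101-set controls, 14 of 1067 in the Snord101 knockdown, 7 of 1068 in Snord89-set controls and 3 of 1067 in the Snord89 knockdown. These are 2.34%, 1.31%, 0.655% and 0.281%, against 2.76%, 2.58%, 2.27% and 2.1% over 45S, which fell in the same order. The median inner flanking counts ran in the same order, at 147, 110, 99.3 and 74.1, and their part in the score counts was not tested. Scores also repeated less well here than over 45S. The mean absolute difference between the 2 libraries of a group was 0.0697 to 0.110 in inner ITS2 of neurons and 0.0483 to 0.0706 over 45S. In ESC, 58 of 607 ITS2 positions (9.56%) reached 0.75 in both libraries, against 11.5% of 10271 positions of 45S. When a flanking count of 100 was required, the ESC count was 9 of 58 positions (15.5%), against 12.0% over 45S; without the first and last 10 positions it was 4 of 48 (8.33%).

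**Figure D5:**
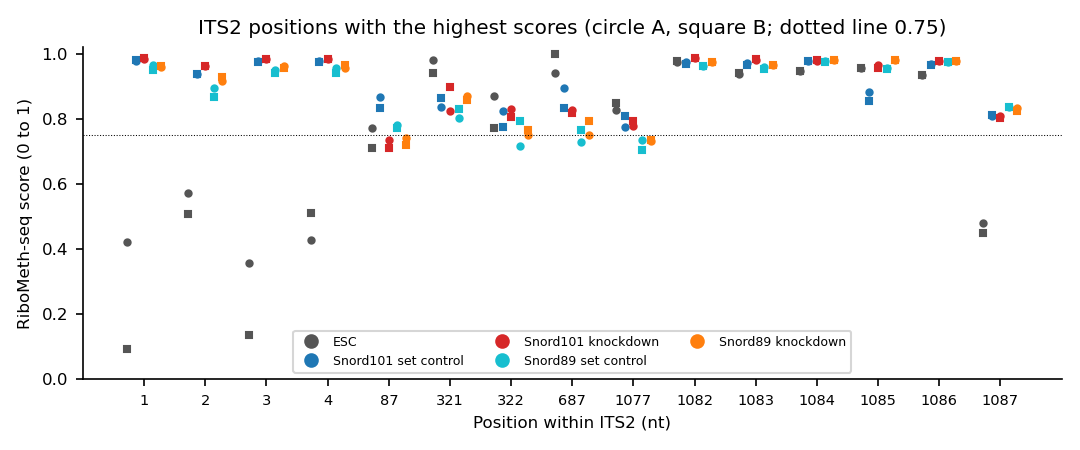
RiboMeth-seq score (0 to 1) at 15 ITS2 positions with the highest scores in neurons, 1 point per library (circle A, square B), with the dotted line at 0.75. The border positions nt 1 to 4 and nt 1082 to 1087 lie above the line in all neuron libraries; nt 321 (position 7355) is the inner position above it in all 8 neuron libraries and both ESC libraries.

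The score was tested on counts, with the flanking mean as offset, so that a negative log2 ratio means fewer ends relative to the neighbours and a higher score after the ASO. After the Snord101 ASO, 1 of 1087 ITS2 positions passed, 8119, against 0.371% of 12928 over 45S. Its scores were 0.881 and 0.855 in controls and 0.965 and 0.955 in the knockdown, a log2 ratio of relative ends of -1.73 (SE 0.15, edgeR adjusted p = 0.0303). Position 7107 had the next smallest p and did not pass (log2 ratio -1.05, edgeR adjusted p = 0.0599). After the Snord89 ASO, 2 of 1087 positions passed, against 0.264% of 12870 over 45S. Position 8119 scored 0.955 and 0.953 in controls and 0.979 in both knockdown libraries (log2 ratio -1.15, SE 0.07, edgeR adjusted p = 0.00262). Position 8116 (nt 1082) scored 0.962 and 0.961 in controls and 0.975 and 0.974 in the knockdown (log2 ratio -0.59, SE 0.08, edgeR adjusted p = 0.0449). In both sets the neighbouring peak at 8122, part of these flanking means, was higher in the knockdown libraries. The 3 calls were lost without knockdown A and without knockdown B of their set, as were all other relative-ends calls over 45S. The call at 8116 passed in 3 of 9 alternatives, and was also lost with a mean score of at least 0.5, a flanking count of at least 100, a flanking window of 2 and a median in place of the flanking mean. Inner ITS2 had 0 calls in both sets by edgeR, with 138 (Snord101) and 55 (Snord89) positions at an unadjusted p under 0.05. These are 12.9% and 5.15% of inner positions, against 12.8% and 9.45% over 45S. Without control A or control B of the Snord101 set, 69 (6.35%) and 347 (31.9%) ITS2 positions passed, against 6.5% and 25.6% over 45S. Without Snord89-set control A 21 passed (1.93%), against 4.7% over 45S.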

How the data were processed

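Read ends were measured by RiboMeth-seq in 10 mouse libraries. The deposited counts are whole numbers of ends per position: per the file headers, 5′ ends in the ESC table and 5′ plus 3′ ends in the neuron tables. The deposited score is a fraction from 0 to 1 that the authors computed per library, and it was recomputed here from the counts to within rounding. Per the submitters' processing notes, Trim Galore, cutadapt, Bowtie2 and bedtools were used; the genome build and reference sequence are not given in the sources used here. Hydrolysis lasted 1 to 12 minutes and aimed at fragments of 50 to 100 bp, per the labels' protocols.

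End counts were tested with edgeR 4.0.16 (R 4.3.3), quasi-likelihood, on all 45S positions with a mean count of at least 10, or in windows of 50 tiled from the first ITS2 position. Library sizes were total 45S ends with no further scaling. Relative ends used the log weighted flanking count as offset, with a minimum of 10 in each library. P-values were adjusted by Benjamini-Hochberg with a threshold of 0.05. Each knockdown was fitted with its own controls, and the interaction over 8 neuron libraries. Standard errors are the size of the log2 ratio divided by the root of edgeR's F. The level fit was tested on counts simulated with a common dispersion from the Snord101 set, with 200 of 12947 positions changed. It recovered 41.5% of changes of log2 size 1 and 97.5% of those of log2 size 2. False calls were 5.68% and 5.80% of all calls. The simulated offset of relative ends used no flanking positions, so that fit was not tested apart from the level fit. Alternatives were DESeq2 1.42.0, TMM factors, other library sizes, filters, window sizes, flanking means and a replicate block, and leaving out each library. The planned ESC test was not run, since the ends counted differ. Positions were named by fixed rules: the 10 highest levels, the 10 highest scores, and up to 10 per test past the threshold without overlap (or the 3 smallest p). All 13 called positions are given, and positions 7129, 7131, 7132, 7355, 7356 and 7721, with 7121 and 8111 in the plot of scores, were chosen after their values were seen. The members, lists and rules were all chosen with earlier results of these data known. The ITS2 sequence was not used here, and one ASO sequence is not reported here.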

Additional observations from a re-analysis of the deposited data

How the results depend on the processing

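The counts under alternatives in this section are for ITS2 alone, with no share over the whole precursor beside them. They are therefore not read as particular to ITS2. In the Snord101 set, 13 ITS2 positions passed the level test. The count was 5 with TMM factors (4 lower and 1 higher), 138 with the ITS2 total as library size, 54 with the inner ITS2 total (34 lower and 20 higher; an alternative chosen after seeing the data), 37 with DESeq2, 28 with 8 neuron libraries in one fit and 14 to 224 when each library was left out. Of windows, 1 passed, against 2 with TMM factors, 8 with the ITS2 total, 0 with the inner total, 4 with DESeq2, 4 with 8 libraries in one fit, 5 in windows of 25 and 0 to 10 when each library was left out. Of relative ends, 1 position passed, against 0 without the first and last 10 positions, 3 with a mean score of at least 0.5, 2 with a flanking window of 2 positions, 5 with a median in place of the flanking mean and 0 to 347 when each library was left out.

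In the Snord89 set, 0 positions passed the level test. The count was 1 with TMM factors, 1 with the ITS2 total, 27 with the inner total (18 lower and 9 higher), 14 with DESeq2 and 0 to 247 when each library was left out. Of windows 0 passed, against 3 with TMM factors, 1 with the ITS2 total, 2 with the inner total, 3 with DESeq2 and 0 to 22 when each library was left out. Of relative ends 2 passed, against 0 without the first and last 10 positions, 1 with a mean score of at least 0.5, 1 with a flanking count of at least 100, 1 with a flanking window of 2, 1 with a median in place of the flanking mean and 0 to 21 when each library was left out. The interaction gave 0 to 15 positions and 0 to 2 windows when each library was left out. Between the control groups 100 positions passed, against 451 with the ITS2 total and 47 to 182 when each library was left out.

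The difference in ITS2 share reversed in both sets: from 0.567 to -0.0298 without the first and last 10 positions and to -0.0246 without the 10 positions with the most ends (Snord101), and from 0.169 to -0.0318 and -0.0305 (Snord89), in percentage points. Position 8122 alone accounts for this by construction. The log2 ratio of position 7082 in the Snord89 set reversed to 0.0858 with the inner total. Setting the ITS2 total as library size moved the median log2 ratio of all 45S positions by -0.47 (Snord101) and -0.26 (Snord89), and the inner total by 0.33 and 0.37, which bears on all levels under those scalings. The count of scores of at least 0.75 was 58 in ESC, 9 with a flanking count of at least 100, 143 at a score of 0.5 and 19 at 0.9. In the 8 neuron libraries it was 11, and 49 at 0.5, 7 at 0.9 and 1 without the first and last 10 positions. The causes of the other changes were not tested.

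With the replicate letter as a block (the replicate block fit), 8 ITS2 positions passed the Snord101 level test, 7 of them among the 13. In the Snord89 set 67 ITS2 positions passed the level test, with 3 windows and 6 positions of relative ends. Between the control groups 44 positions passed. No share over 45S is given beside these counts, so they are not read as particular to ITS2. Deviations of same-letter libraries correlated at -0.25 (Snord101 set), 0.11 (Snord89 set) and -0.54 (controls) over 45S. With 2 libraries per group these values cannot decide whether same-letter libraries were prepared together. The letters were not taken as a pairing. Depth limits single inner positions in ESC, with medians of 8.5 and 11.0 ends per position. In neurons the libraries of one group differed by more than counting error, with a chi-square per position of 1.79 to 28.03.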
